A study of Drosophila melanogaster with 6 samples.

Results

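Transcripts of the translation initiation factors were followed in RNA-seq of unfertilized eggs of Drosophila melanogaster. The factors were taken by name, as every gene in the deposited tables whose symbol starts with eIF and a digit, which gave 44 of 13943 listed features. By factor number they were 2 genes of eIF1, 5 of eIF2, 5 of its exchange factor eIF2B, 16 of eIF3, 13 of eIF4, 2 of eIF5 and 1 of eIF6. The eggs came from mothers that overexpressed MEK in the germline, and the groups differed in the form of the kinase. In 3 libraries (MTD>MEK, here MEK eggs) the transgene was wild-type MEK, encoded by Dsor1 in the fly, and in the other 3 (MTD>MEK_F53S, here F53S eggs) it carried the substitution F53S. Both constructs sat at the same genomic site and were driven by MTD-GAL4, so by the labels every sample overexpressed a form of MEK and none lacked a transgene. Fathers were sterile, eggs were 0 to 30 min old, and each library pooled about 20 of them.

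Initiation factors bring the small ribosomal subunit, the initiator tRNA and the mRNA together. eIF2 carries the initiator tRNA and is reloaded with GTP by eIF2B, eIF3 is a large scaffold on the small subunit, and the eIF4 group binds the mRNA cap, unwinds the leader and links the cap to the ribosome. eIF1, eIF1A and eIF5 control start codon choice, eIF5B joins the subunits, and eIF6 keeps the large subunit apart until it is ready. A laid egg makes little or no new RNA, and its early protein supply depends on translation of mRNA stored by the mother.

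Libraries held between 37224814 and 48756311 estimated counts. The mitochondrially encoded share of the counts was 7.84 to 10.1% in MEK eggs and 4.14 to 5.24% in F53S eggs. Dsor1 stood at 1370 ± 182 CPM in MEK eggs and 1336 ± 229 CPM in F53S eggs (SD, n = 3), which does not tell the transgenes apart. Of 7 maternal germline markers, all were measured, whereas 13 follicle cell and eggshell markers summed to at most 0.558 CPM in any library. Among 15 testis and sperm markers 11 had no count, and most of the summed 59.9 to 83.4 CPM came from bam, which is also a female germline gene. mia of this list was called higher in F53S eggs, at 2.10 ± 1.33 CPM in MEK eggs and 7.64 ± 1.79 CPM in F53S eggs (edgeR adjusted p = 0.0224). Some markers moved with the groups: the germline list summed to 21272 to 21782 CPM in MEK eggs and 16178 to 17250 CPM in F53S eggs. Its members differed in direction: edgeR called CycB, smg and bcd lower and nanos and grk higher. The 13 early zygotic genes summed to 204 to 235 CPM in MEK eggs and 149 to 163 CPM in F53S eggs, mostly from slam, which was called lower. sisA and Kr of this list were called higher, with sisA at 1, 0 and 0 counts in MEK eggs and 277, 46 and 465 in F53S eggs. Too low to be tested were eve, tll, bnk, nullo, run and sna. In that order they totalled 2, 0, 0, 0, 0 and 0 counts in MEK eggs and 135, 43, 45, 35, 22 and 11 in F53S eggs. Each of them had 0 counts in F53S replicate 2. Sry-alpha went the other way, uncalled (log2 fold change -0.54), and twi, ftz and kni had no count. The part of these markers in the results was not tested. The groups are separate fly lines, so a transgene effect and one of genetic background cannot be told apart. In pooled eggs fewer cells or eggs and less RNA in each cannot be told apart either.

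Initiation factor transcripts covered a wide range of levels, compared here per length as TPM (Salmon's length-scaled abundance) averaged over all 6 libraries. The RNA helicase gene eIF4A was the most abundant at 4499 TPM, above 99.8% of detected genes. Next came the eIF3 subunits eIF3b and eIF3d1 at 1592 and 1095 TPM, the alternative initiation factor eIF2A at 827 TPM and eIF3a at 665 TPM. Values of eIF3a, eIF3c and eIF3l (665, 659 and 646 TPM) lay closer together than their spread between libraries. At the lower end of the detected factors stood eIF4EHP, eIF2Bbeta, eIF2Balpha and eIF2Bgamma at 52.4, 49.99, 49.7 and 48.9 TPM, again within their spread. In MEK eggs alone eIF6 was the lowest detected factor, at 36.98 ± 3.77 TPM (SD, n = 3). The remaining 9 genes averaged under 1 TPM, and all of them are paralogs of a factor that was detected.

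**Figure D1:**
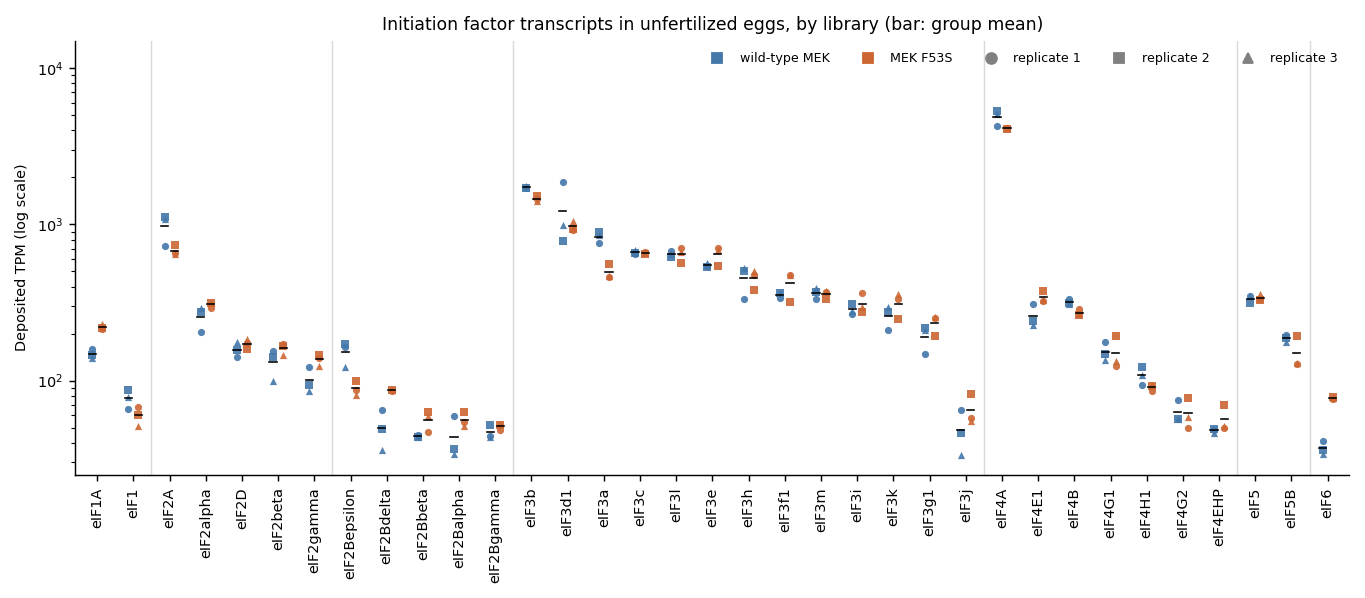
Deposited TPM (log axis) of the 35 initiation factors with a mean of at least 10 TPM, grouped by factor number; each point is a library, marker shape gives the replicate and the bar the group mean of 3. The eIF4A points lie highest, from 4056 to 5283 TPM, and the eIF6 and eIF2Bepsilon points of the groups do not overlap.

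Of the initiation factors tested, 6 were called different between MEK eggs and F53S eggs, and they belonged to different steps. Genes were compared over the whole table with edgeR's quasi-likelihood test, and called at a Benjamini-Hochberg adjusted p under 0.05. Of 36 factors with enough counts, eIF6 and eIF2Bdelta were called higher in F53S eggs, whereas eIF3a, eIF2Bepsilon, eIF4B and eIF3b were called lower. These 6 calls are 16.7% of the factors tested, against 25.2% of all 7539 genes. Higher calls numbered 2 of 36 against 12.3% of all genes, and lower calls 4 of 36 against 12.9%. CPM (counts scaled to library size) did not overlap between groups for 13 of the 36, against 42.3% of all genes. The median log2 fold change, F53S over MEK eggs, was 0.07 for the factors and 0.05 for all genes. Among alternative fits and scalings, 17 in all for most factors, eIF6, eIF3a and eIF2Bepsilon were called in every fit, eIF4B in 14, eIF2Bdelta in 12 and eIF3b in 6. Calls over all genes changed when single libraries were left out. They numbered 1016, 1116, 1075 and 1001 without MEK replicates 2 or 3, or F53S replicates 1 or 3, in that order. Without MEK replicate 1 they numbered 2614. Of the factors, 1 was called higher when any of the first 4 of these libraries was left out, and 4 were without F53S replicate 2. Lower calls numbered 9 without MEK replicate 1 and 2 without F53S replicate 3. Each such fit compared 3 libraries with 2, and the part of that smaller number in the calls was not tested.

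**Figure D2:**
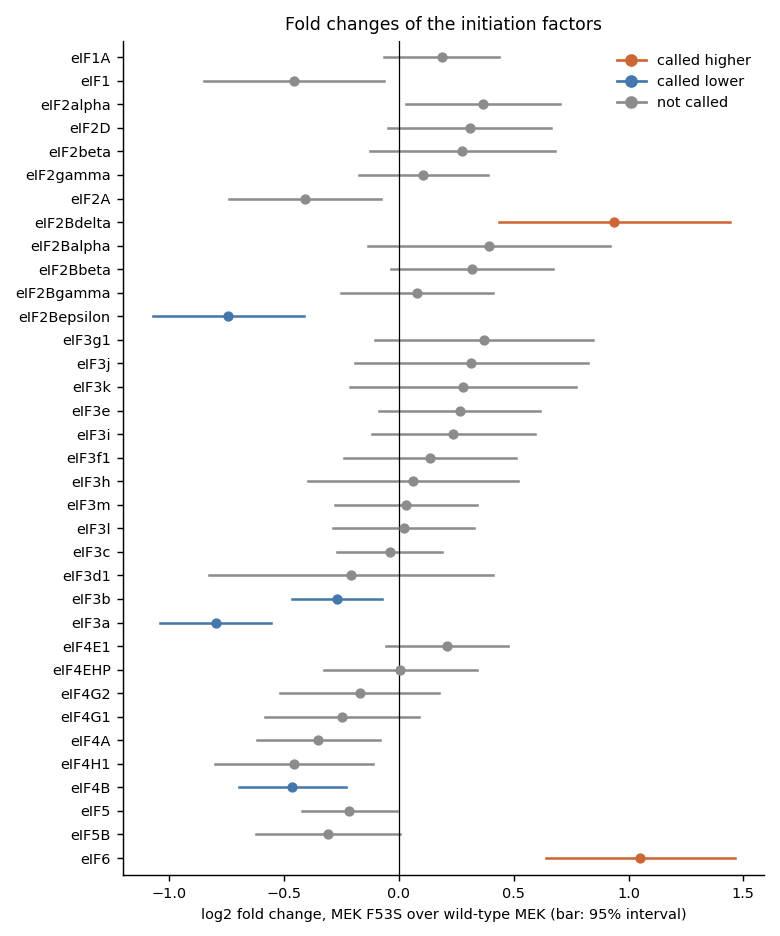
Log2 fold change (F53S over MEK eggs) with its 95% interval from edgeR for the 35 factors tested with a mean of at least 10 TPM, 3 libraries per group, ordered within each factor number. The 6 called factors are coloured, from eIF6 at 1.05 to eIF3a at -0.80, and the 29 grey factors were not called.

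Neither eIF1 nor eIF1A, which control start codon choice, was called on counts. eIF1, which holds the small subunit in its scanning state, had 65.98, 87.2 and 78.2 TPM in MEK eggs and 68.1, 59.9 and 51.3 TPM in F53S eggs. Its groups overlapped per length but not on counts, where its log2 fold change of -0.46 ± 0.17 (SE) was not called (edgeR adjusted p = 0.0827). It was called with DESeq2, and with edgeR without MEK replicate 1 (adjusted p = 0.01996). eIF1A, its partner on the small subunit, had 158, 145 and 139 TPM in MEK eggs and 215, 218 and 229 TPM in F53S eggs, with every F53S library above every MEK library. On counts its log2 fold change was 0.19 ± 0.11 and not called (edgeR adjusted p = 0.252). Per length it was called higher, with 0.58 by limma on log2(TPM + 1) (adjusted p = 0.00743) and 0.47 with edgeR and a length offset implied by counts and TPM (adjusted p = 0.0141). The eIF1A reads were assigned to transcripts of a shorter effective length in F53S eggs, 1737 ± 48.4 bases against 1893 ± 148 (SD, n = 3, groups overlapping), while for the median gene this length was 1.14 times longer in F53S eggs.

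With edgeR on counts and all libraries, 0 of 5 eIF2 genes were called, although eIF2A was in 5 of 17 alternatives and eIF2gamma in 1. The trimer that binds the initiator tRNA is encoded by eIF2alpha, the subunit phosphorylated under stress, eIF2beta and the GTP-binding eIF2gamma, with means over all libraries of 282, 146 and 119 TPM. Their log2 fold changes were 0.37 ± 0.15, 0.28 ± 0.18 and 0.11 ± 0.13 (edgeR adjusted p = 0.102, 0.295 and 0.578). With the deposited effective length as an offset, eIF2gamma was called higher by edgeR at 0.84 (adjusted p = 0.0290). It was not called in any other alternative, the offset of the length implied by counts and TPM included. The deposited length did not match counts and TPM for most genes with several transcripts, and eIF2gamma has 3. Su(var)3-9 shares 16% of the exon bases of eIF2gamma on the same strand and rngo shares 12.6% of those of eIF2alpha on the other strand, so their values are less certain. eIF2A, which can place the initiator tRNA independently of eIF2, had 729, 1111 and 1090 TPM in MEK eggs and 652, 738 and 643 TPM in F53S eggs. The groups overlapped through MEK replicate 1, and without that library eIF2A was called lower (log2 fold change -0.60, edgeR adjusted p = 0.00184), against -0.41 ± 0.15 and an adjusted p of 0.0683 with all libraries. With all libraries it was also called lower by DESeq2 (adjusted p = 0.0403), and by edgeR with no filter on low counts (adjusted p = 0.0489) or with the deposited or implied length as an offset (-0.68 and -0.66, adjusted p = 0.0255 and 0.0223). eIF2D, another factor that can bring in initiator tRNA, had a log2 fold change of 0.31 ± 0.16 (edgeR adjusted p = 0.186).

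Within the exchange factor eIF2B, subunit transcripts changed in opposite directions. eIF2Bepsilon, the catalytic subunit (X, 1920166 to 1922874 in dm6), had 165, 172 and 123 TPM in MEK eggs and 87.2, 98.8 and 81.1 TPM in F53S eggs. All F53S libraries lay below all MEK libraries, and the log2 fold change was -0.74 ± 0.15 (edgeR adjusted p = 0.00639). eIF2Bdelta, a subunit of the regulatory core that senses phosphorylated eIF2 (2R, 23386521 to 23389052), had 64.8, 48.7 and 36.0 TPM in MEK eggs and 85.7, 86.9 and 87.6 TPM in F53S eggs. Here the F53S libraries lay above, and close to each other, with a log2 fold change of 0.94 ± 0.23 (edgeR adjusted p = 0.0149). The edgeR call was lost without MEK replicates 2 or 3, or F53S replicates 1 or 3 (adjusted p = 0.0619, 0.0527, 0.0569 and 0.0560) and with the deposited effective length as an offset (log2 fold change 0.60, adjusted p = 0.0733).

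The other eIF2B subunits, eIF2Balpha, eIF2Bbeta and eIF2Bgamma, had log2 fold changes of 0.39 ± 0.24, 0.32 ± 0.16 and 0.08 ± 0.15 and were not called, although eIF2Balpha was without MEK replicate 1 (edgeR adjusted p = 0.0174). The eIF2Bepsilon transcript made up 43.7, 48.7 and 43.9% of the summed eIF2B TPM in MEK eggs and 27.1, 27.2 and 24.4% in F53S eggs. The TPM ratio of eIF2Bdelta to eIF2Bepsilon, chosen after the values were seen, was 0.323 ± 0.061 in MEK eggs and 0.981 ± 0.0998 in F53S eggs (SD, n = 3, exact permutation p = 0.1, two-sided, the smallest that 3 against 3 libraries allow). Summed over the 5 subunits the level was 337 ± 50.8 TPM and 339 ± 21.4 TPM.

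**Figure D3:**
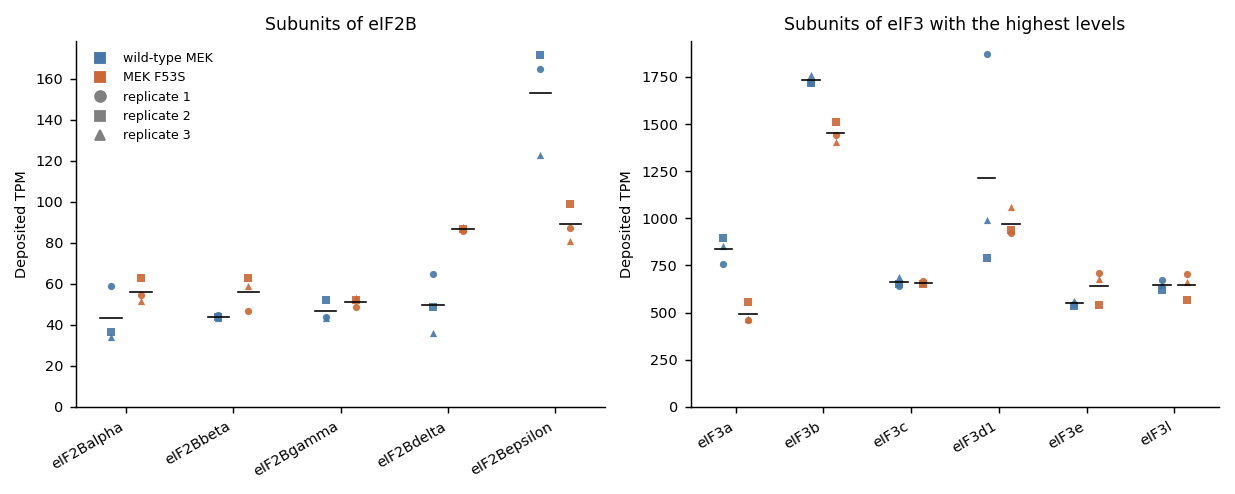
Deposited TPM of the 5 eIF2B subunits (left) and of the 6 eIF3 subunits with the highest means (right), axes from 0; each point is a library, marker shape gives the replicate and the bar the group mean of 3. The eIF2Bepsilon points fall from 123 to 172 TPM in MEK eggs to 81.1 to 98.8 TPM in F53S eggs, the eIF2Bdelta points lie higher in F53S eggs, and 1 MEK library stands apart for eIF3d1.

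Of 13 eIF3 subunit genes tested, 2 were called lower and 0 higher, or 15.4% called lower against 12.9% of all genes. eIF3a, the largest subunit, which spans the complex on the solvent side of the small subunit (3R, 4429798 to 4433895), had 755, 897 and 855 TPM in MEK eggs and 460, 554 and 469 TPM in F53S eggs. The groups were well apart, with a log2 fold change of -0.80 ± 0.11 (edgeR adjusted p = 0.00106), a level 1.74-fold lower on the count scale. eIF3b, a scaffold subunit that binds eIF3a, eIF3g and eIF3i, had 1716, 1720 and 1758 TPM in MEK eggs and 1444, 1513 and 1404 TPM in F53S eggs. Its groups did not overlap either, but the change was small at -0.27 ± 0.09, just inside the threshold (edgeR adjusted p = 0.0496). The edgeR call of eIF3b was lost without MEK replicate 2 or 3 (adjusted p = 0.0934 and 0.121) and without F53S replicate 1, 2 or 3 (adjusted p = 0.0982, 0.0655 and 0.167).

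eIF3c, a core partner of eIF3a, had 642, 653 and 688 TPM in MEK eggs and 665, 649.7 and 656 TPM in F53S eggs. Its log2 fold change was -0.04 ± 0.10, with a 95% interval from -0.27 to 0.19. The order of eIF3a and eIF3c therefore differed between groups: the TPM ratio of eIF3a to eIF3c, chosen after the values were seen, was 1.18, 1.37 and 1.24 in MEK eggs and 0.691, 0.853 and 0.714 in F53S eggs (exact permutation p = 0.1, two-sided, the smallest possible). eIF3d1, the cap-binding subunit in mammals, had 1871, 787 and 991 TPM in MEK eggs and 923, 938 and 1058 TPM in F53S eggs. Replicate 1 of MEK stood far above all other libraries, and the log2 fold change went from -0.21 ± 0.28 to 0.23 without it, uncalled both times (edgeR adjusted p = 0.622 and 0.288).

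The smaller eIF3 subunits eIF3e, eIF3f1, eIF3g1, eIF3h, eIF3i, eIF3k, eIF3l and eIF3m had log2 fold changes between 0.02 and 0.37, and none was called. All of these were lower in F53S eggs replicate 2 than in replicates 1 and 3, and without replicate 2 eIF3e and eIF3f1 were called higher (edgeR adjusted p = 0.0195 and 0.0454). eIF3j, a loosely bound subunit, was the scarcest of those detected, with 64.4, 46.4 and 33.3 TPM in MEK eggs and 57.8, 82.1 and 55.02 TPM in F53S eggs. Its log2 fold change was 0.32 ± 0.23 (edgeR adjusted p = 0.343). senju shares 16.8% of the exon bases of eIF3h on the other strand.

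Among the helicase eIF4A and its cofactors, edgeR called eIF4B lower in F53S eggs, and DESeq2 also called eIF4A and eIF4H1 lower. eIF4B, which stimulates the helicase (3L, 27842669 to 27858271), had 333, 312 and 308 TPM in MEK eggs and 287, 263 and 266 TPM in F53S eggs. The groups did not overlap, with a log2 fold change of -0.47 ± 0.10 on counts (edgeR adjusted p = 0.0109). The call was lost without F53S replicate 3 (adjusted p = 0.0569) and with limma on log2(TPM + 1), where the change was -0.22 (adjusted p = 0.104). eIF4A, the helicase itself, had 4284, 5283 and 5084 TPM in MEK eggs and 4137, 4056 and 4147 TPM in F53S eggs. Again the F53S libraries lay below, but the log2 fold change of -0.35 ± 0.12 was not called (edgeR adjusted p = 0.0570). It was called in 5 of 17 alternatives, among them DESeq2 (adjusted p = 0.0424) and the edgeR fit without MEK replicate 1 (adjusted p = 0.00236). eIF4H1, a relative of eIF4B, had a log2 fold change of -0.46 ± 0.15 (edgeR adjusted p = 0.0541), with groups that overlapped per length but not on counts. It was called lower by DESeq2 (adjusted p = 0.0259), and by edgeR with no or a stricter filter on low counts (adjusted p = 0.0327 and 0.0497) or without MEK replicate 1 (adjusted p = 0.00205).

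Of the cap-binding proteins, eggs held eIF4E1 and the translational repressor eIF4EHP, and the other paralogs were at or near 0. eIF4E1, the cap-binding subunit of the general initiation complex (3L, 9399618 to 9402460), had 307, 239 and 226 TPM in MEK eggs and 323, 373 and 327 TPM in F53S eggs. The groups did not overlap per length but did on counts, where the log2 fold change was 0.21 ± 0.12 (95% interval -0.06 to 0.48, edgeR adjusted p = 0.227). It was called by edgeR with the deposited effective length as an offset (0.47, edgeR adjusted p = 0.0397), the only 1 of 17 alternatives that called it. eIF4EHP, which binds the cap without eIF4G and represses maternal caudal and hunchback mRNA in the fly (3R, 24063077 to 24108960), had 48.5, 48.9 and 46.3 TPM in MEK eggs and 49.8, 69.7 and 51.2 TPM in F53S eggs. The groups did not overlap per length, by a small margin apart from F53S replicate 2, but they overlapped on counts, where the log2 fold change was 0.01 ± 0.15 (95% interval -0.33 to 0.34).

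The eIF4E1 transcript made up 86.2, 82.7 and 82.9% of the summed TPM of the eIF4E family in MEK eggs and 86.5, 84.1 and 86.2% in F53S eggs. That share differed by 1.66 percentage points, less than its spread between MEK libraries (exact permutation p = 0.3, two-sided). The difference was 3.31 points on CPM, and 2.78 without MEK replicate 1 and 1.05 without MEK replicate 2. eIF4E5 reached 26, 3 and 10 estimated counts in MEK eggs and 18, 0 and 44 in F53S eggs, at most 1.26 TPM. eIF4E6 had 8 counts in MEK replicate 2, 11 in F53S eggs replicate 2 and 0 elsewhere. eIF4E3, a form needed in spermatogenesis, eIF4E4 and eIF4E7 had 0 counts in all libraries, which allows up to 3 counts per library, or 0.0567 to 0.0881 CPM.

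Other paralog pairs also held a detected and an undetected member. eIF3d2, eIF3f2 and eIF3g2 had 0 counts in every library, beside eIF3d1, eIF3f1 and eIF3g1 at 1095, 388 and 212 TPM over all libraries. eIF4H2 had 5 counts in F53S eggs replicate 1 and 0 elsewhere, beside eIF4H1 at 99.2 TPM.

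In the eIF4G family, which bridges eIF4E, eIF4A and eIF3, both paralogs were detected. eIF4G1, on chromosome 4 (915297 to 930715), had 176, 147 and 136 TPM in MEK eggs and 124, 192 and 134 TPM in F53S eggs. eIF4G2, known for its role in male meiosis (3R, 23808285 to 23819237), had 75.4, 56.8 and 56.9 TPM in MEK eggs and 49.4, 76.9 and 58.5 TPM in F53S eggs. In both genes F53S replicate 2 had the highest TPM of all libraries and the groups overlapped. Their log2 fold changes were -0.25 ± 0.15 and -0.17 ± 0.15 (edgeR adjusted p = 0.258 and 0.453), and eIF4G1 was called lower without F53S replicate 2 (-0.44, adjusted p = 0.0246). The share of eIF4G1 in the family was 70.9 ± 1.13% in MEK eggs and 70.8 ± 1.05% in F53S eggs (SD, n = 3, exact permutation p = 1, two-sided). CG33111 shares 8.56% of the exon bases of eIF4G2 on the same strand and was itself called higher (log2 fold change 0.85, edgeR adjusted p = 0.00407).

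**Figure D4:**
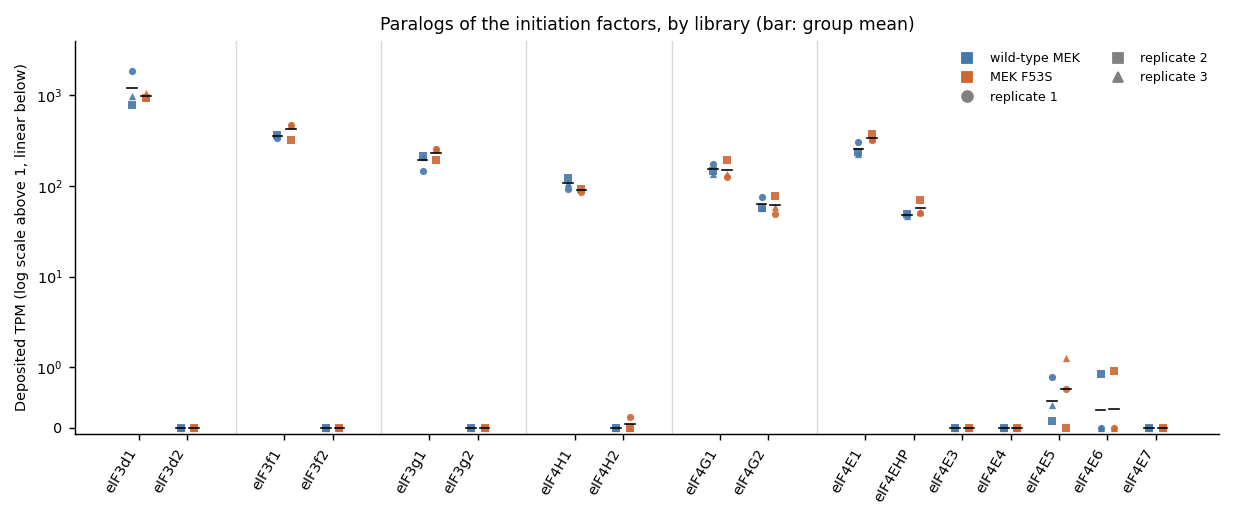
Deposited TPM of initiation factor paralogs, on an axis that is linear below 1 TPM and log above; each point is a library, marker shape gives the replicate and the bar the group mean of 3. Each of eIF3d2, eIF3f2, eIF3g2, eIF4E3, eIF4E4 and eIF4E7 lies at 0 in all 6 libraries, eIF4H2, eIF4E5 and eIF4E6 stay at or under 1.26 TPM, and eIF4G2 stands at 49.4 to 76.9 TPM.

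At subunit joining, eIF6 was higher in F53S eggs, and eIF5 and eIF5B were not called. eIF6, which binds the large subunit and blocks joining (2R, 23849246 to 23850301), had 41.1, 36.04 and 33.8 TPM in MEK eggs and 75.9, 78.3 and 77.8 TPM in F53S eggs. Both groups were tight and far apart, with a log2 fold change of 1.05 ± 0.18 (edgeR adjusted p = 0.00366), or 2.07-fold. eIF5, which triggers GTP hydrolysis by eIF2, had 346, 313 and 346 TPM in MEK eggs and 331, 330.05 and 359 TPM in F53S eggs, a log2 fold change of -0.22 ± 0.09 on counts (edgeR adjusted p = 0.115). Without MEK replicate 1 it was called lower (edgeR adjusted p = 0.0489), and CG46312 shares 80.8% of its exon bases on the same strand, so its value is uncertain. eIF5B, the GTPase of subunit joining, had 194, 188 and 176 TPM in MEK eggs and 127, 193 and 130.1 TPM in F53S eggs. F53S replicate 2 lay within the MEK range, the log2 fold change was -0.31 ± 0.14 (edgeR adjusted p = 0.138), and it was called lower without that library (adjusted p = 0.0160).

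Summed over all 44 genes, initiation factors took 15747, 16405 and 16357 TPM in MEK eggs and 14846, 14481 and 14918 TPM in F53S eggs. Every F53S library was lower, and the ratio of the means was 0.912 (exact permutation p = 0.1, two-sided, the smallest possible). The difference of the means was -1422 TPM, and -1872 with TPM rescaled over nuclear genes. Most of the difference lay in eIF4, at 5832 ± 461 against 5086 ± 33.8 TPM, and eIF3, at 7596 ± 299.7 against 7020 ± 373 TPM. These falls came from few genes. In eIF4 it was mainly eIF4A, not called, at 4884 against 4114 TPM. In eIF3 they were eIF3a (836 against 494), eIF3b (1731 against 1454) and eIF3d1 (1216 against 973), the last through MEK replicate 1. On counts, 9 of 13 tested eIF3 genes and 3 of 8 tested eIF4 genes had a positive log2 fold change. The sum of eIF1 and eIF1A was 224 ± 7.47 against 280.3 ± 2.62 TPM, with no overlap. After adjustment over the factor numbers, these sums and the level of eIF6 each had an exact permutation p of 0.175.

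Some of the spread among F53S libraries followed the length of the gene. In F53S replicate 2, 19 of the 35 factors with a mean of at least 5 CPM had their lowest level of the group, and for eIF3 this held for 11 of 13. MEK replicate 1 likewise had the lowest level of its group for 19 of the 35, and for 8 of 13 eIF3 genes. The difference between F53S replicate 2 and the mean of F53S replicates 1 and 3 had a Spearman correlation of 0.50 with annotated exon length over the 35 factors. Over 6143 genes, which are not independent and share these libraries, it was 0.53. The median of that difference was -0.17 (log2) for the 19 shorter factors and 0.03 for the 16 longer ones. Among the shorter factors the shift lay mostly in eIF3, where all but eIF3j (0.51) were between -0.71 (eIF3k) and -0.34 (eIF3m). Of the shorter factors outside eIF3, eIF2D was at -0.40 and the others between -0.17 (eIF4B) and 0.10 (eIF2Bbeta). Length and membership in eIF3 were not separated by a test. eIF3k and eIF3f1 lay lowest, and eIF4G1, eIF4EHP and eIF4G2 were among those above 0. Taken the same way, F53S replicates 1 and 3 had correlations of -0.56 and -0.34 over the factors. The values of the F53S libraries are not independent, since each was set against the others of its group. In MEK eggs the same correlations over the factors were 0.12, -0.06 and -0.09 for replicates 1, 2 and 3. The part of this pattern in the comparisons of eIF3, eIF4G and eIF5B was not tested beyond the fits without replicate 2.

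**Figure D5:**
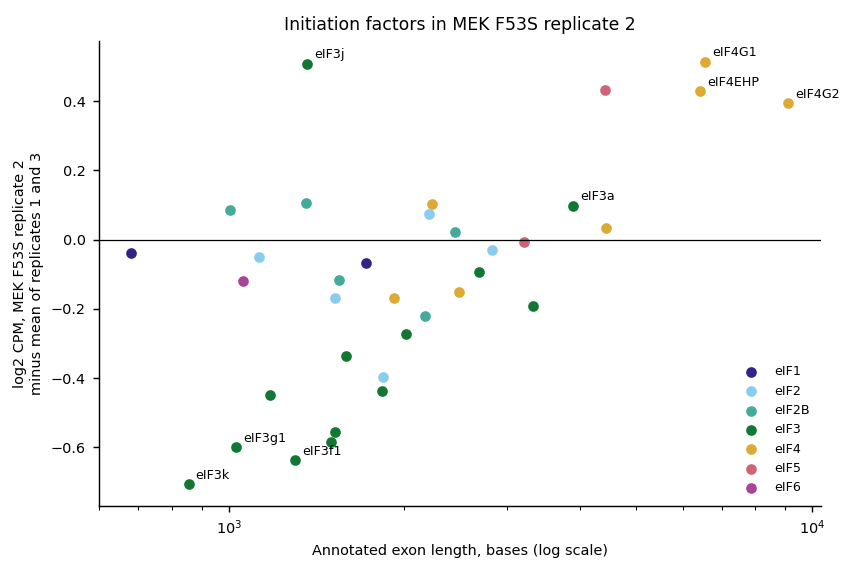
Difference in log2 CPM between F53S replicate 2 and the mean of replicates 1 and 3, against annotated exon length (log axis), for 35 initiation factors coloured by factor number; each point is a gene. Short eIF3 subunits lie below 0 and the long eIF4G1, eIF4EHP and eIF4G2 above it, while eIF3j departs from the other short subunits.

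Genes that act on initiation were taken from fixed lists. Of 4 tested genes for kinases of eIF2 and their partners, 3 were called lower and 0 higher, where 12.9% of all genes were called lower. PEK, the kinase of the endoplasmic reticulum, had 494, 503 and 543 CPM in MEK eggs and 349.5, 309 and 330 CPM in F53S eggs (log2 fold change -0.64 ± 0.10, edgeR adjusted p = 0.00233). Gcn2, the kinase of amino acid shortage, had 144, 156 and 156 CPM against 93.9, 105 and 92.7 CPM (-0.64 ± 0.12, edgeR adjusted p = 0.00427). crc, the fly ATF4, had 365, 449 and 448 CPM against 314, 274 and 296 CPM (-0.52 ± 0.12, edgeR adjusted p = 0.0126). CPM of these 3 genes did not overlap between groups, which held for 42.3% of all genes. Without MEK replicate 2 or 3 or F53S replicate 3, 2 genes of this list were called. The phosphatase subunit gene PPP1R15 had a log2 fold change of 0.02 ± 0.14.

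Of 10 TOR pathway genes, 2 were called higher and 3 lower, where 25.2% of all genes were called either way. mTor, the kinase, and gig, an inhibitor of the pathway, had log2 fold changes of -0.66 ± 0.14 and -0.70 ± 0.13, and the activating GTPase gene Rheb one of 0.75 ± 0.21 (edgeR adjusted p = 0.00895, 0.00476 and 0.0293). Calls in this list numbered 3 without MEK replicate 2 or 3 or F53S replicate 1, and 2 without F53S replicate 3.

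Among 15 regulators of cap binding and of mRNA, 0 were called higher and 2 lower, a share near the 12.9% of all genes called lower, and 1 was called without MEK replicate 2 or F53S replicate 1 or 3. 4E-T, the eIF4E transporter, had 1046, 849.6 and 885 CPM in MEK eggs and 549, 641 and 559.8 CPM in F53S eggs, with no overlap (log2 fold change -0.67 ± 0.12, edgeR adjusted p = 0.00348). NAT1, an eIF4G relative that binds no eIF4E, had 1054, 1063 and 1085 CPM against 678, 981 and 588 CPM, again with replicate 2 the highest of F53S eggs (-0.51 ± 0.17, edgeR adjusted p = 0.0494). The 4E-BP gene Thor stood at 0.832 to 3.04 CPM in all libraries. cup and pAbp, which act on stored maternal mRNA, had log2 fold changes of 0.19 ± 0.13 and -0.05 ± 0.09.

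Among 9 tested elongation and release factors, eEF1gamma was called higher and eEF1alpha1 lower, a share near the 25.2% of all genes called, and 1 call was left without MEK replicates 2 or 3, or F53S replicates 1 or 3. eEF1alpha1, which delivers tRNA to the ribosome, went from 14936 ± 2961 to 9613 ± 392 CPM (log2 fold change -0.64 ± 0.13, edgeR adjusted p = 0.00746). eEF1gamma had a log2 fold change of 0.30 ± 0.10 (edgeR adjusted p = 0.0494). Of 3 recycling and reinitiation genes 0 were called by edgeR, with 1, the recycling factor gene pix, below 0.05 before adjustment. pix was called by DESeq2, and by edgeR without F53S replicate 2. Of mIF2 and mIF3, the mitochondrial initiation factors, 0 were called by edgeR or DESeq2 and 0 had an unadjusted edgeR p under 0.05, and their log2 fold changes were 0.17 ± 0.26 and -0.01 ± 0.13.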

How the data were processed

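RNA-seq of 6 egg libraries, 3 per group, was analysed. The authors' deposited gene tables hold estimated counts and TPM from Salmon 0.8.2 on dm6, per the submitters' processing notes and the file headers; for annotation, strand setting and bias options the sources used here give nothing. The effective length in the file headers did not match counts and TPM for most genes with several transcripts, so a length offset implied by both was added as an alternative after the data were seen. Of 13943 features 13831 matched a symbol in the name table. Coordinates and overlaps are from the Ensembl annotation of the dm6 assembly, counted from 1.

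Estimated counts were rounded, filtered with filterByExpr (at least 10 counts, 15 in total), scaled by TMM and tested with edgeR 4.0.16 (quasi-likelihood, Benjamini-Hochberg, R 4.3.3) over all genes. limma 3.58.1 on log2(TPM + 1), which understates changes of low genes, and DESeq2 1.42.0 were alternatives. The edgeR fit with its main settings was tested on simulated data, and the alternatives were not. Sums and shares had exact permutation tests, two-sided. Reported for each library were factors that were called, all detected eIF4E and eIF4G members, and the factor of smallest p and of highest TPM for each factor number. From each other list at most 4 called genes were named, some by fold change or mean alone. A called gene of the TOR list is not reported here. Other values were added after they were seen. A planned search of promoter motifs was not run, since no sequence was used here. The members and lists were chosen with earlier results of these data known. Labels do not say that replicates came from separate mothers, so p-values measure the spread between these libraries, which may be technical. Floors cover counting error only.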

Additional observations from a re-analysis of the deposited data

How the results depend on the processing

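Calls of eIF6, eIF3a and eIF2Bepsilon held in all 17 alternatives. Called higher among the factors were 2, against 4 with the effective length offset and 1 to 4 when single libraries were left out. Called lower were 4, against 8 with DESeq2, 2 with limma on log2(TPM + 1) or log2(TPM + 0.1), and 2 to 9 without single libraries. Over all genes, leaving out a library gave 1001 to 2614 calls against 1900. Cap-binding and mRNA regulators had 2 calls, against 1 with median-of-ratios size factors, 4 with the implied length offset and 1 to 3 without single libraries. The TOR pathway had 5, against 3 with the effective length offset and 2 to 6 without single libraries. Recycling genes had 0, against 1 with DESeq2 and 0 to 1 without single libraries. Elongation and release factors had 2, against 1 with median-of-ratios size factors, the replicate block or either length offset, and 1 to 3 without single libraries. The eIF2B sum, 2.74 TPM higher in F53S eggs, became -11.2 as CPM, -5.84 as TPM over nuclear genes, -25.8 without MEK replicate 3 and -9.28 without F53S replicate 2, with a range of -25.8 to 23.03 over libraries left out. The share of eIF4G1, different by -0.05 percentage points, became 0.588 without MEK replicate 2 and 0.559 without F53S replicate 3, with a range of -0.487 to 0.588. The difference in the share of eIF4E1, 1.66 percentage points, ranged from 1.05 to 2.78 without single libraries. The causes were not tested. Same-numbered replicates did not deviate together (correlations -0.0582, -0.121 and 0.113), and with the replicate block 1486 genes were called, with 2 factors higher and 3 lower; eIF3b was the factor lost (edgeR adjusted p = 0.0947). Of the calls over all genes 48.9% were higher, against 64.7% and 64.96% with limma at the larger and smaller pseudocount. Depth limits only the near-absent paralogs, where 3 counts equal 0.0567 to 0.0881 CPM.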

Other observations

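The eIF2alpha and eIF4H1 genes are divergent neighbours on chromosome X, on the minus and plus strand, with 1671 bases between them. Their log2 fold changes were 0.37 ± 0.15 and -0.46 ± 0.15, and neither was called (edgeR adjusted p = 0.102 and 0.0541).

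The effective length implied by counts and TPM shows which transcripts of a gene Salmon assigned reads to, together with its own length corrections. For eIF2gamma it was 2121 ± 141 bases in MEK eggs and 2011 ± 32.3 bases in F53S eggs (SD, n = 3), with overlapping groups, and its ratio of 0.948 was undercut by 2.36% of genes. For eIF1A the ratio was 0.918, undercut by 1.81% of genes. For eIF2D, which has 1 annotated transcript, the ratio was 1.35.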
